A study of Homo sapiens with 12 samples.

Results

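MDA-MB-231 is an established line of triple-negative breast cancer cells, and the RNA of its control cells is described here without a comparison to treated cells. The members are the 3 arrays labelled cntrl, out of 12 in the series. The cntrl cells had been transfected with control oligonucleotides of both kinds used in the study. These were the Pre-miRNA Negative Control of the microRNA mimic at 5 nM, delivered with Lipofectamine RNAiMAX, and NC1, the negative control of the Dicer-substrate siRNA, at 500 pM for 72 h. The cells are therefore not untouched cells, since lipid and control RNA were given to every cntrl sample. The other groups, mimic145, sirnaAGO2 and sirnaAGO2+mimic145, enter only through the normalization. The study asked how Argonaute 2 shapes the response to miR-145. Here the question is which lineage, receptor and signalling genes the control cells express, and how far replicate arrays differ in this.

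The 3 arrays were labelled as replicates of 1 cell line, and their titles do not say whether these were separate cultures. The spread between them covers that line and no other line. Each array held 411345 spots that were not controls, on probes that lie in single exons. Between 67.6% and 73.4% of these spots were well above background, lowest on replicate 2 and highest on replicate 3, and at most 0.25% of the negative control spots were. No spot was saturated. Of the 20708 genes measured, 14247 were detected, which is 68.8%. A gene was taken as detected where at least 50% of its probes were well above background on all 3 arrays. A further 4900 genes were mixed, with fewer such probes, and 1561 had no probe above background on any array. Levels are normalized log2 signals averaged over the probes of a gene, written with the SD over the 3 arrays, and a percentile is the share of measured genes with a lower mean level. Single spots were well above background down to a normalized log2 signal of 5.38 to 5.73 on the 3 arrays, and no spot below that range was. Whether the order of values below it is reliable was not tested. The mean of a gene can lie under that range when some of its probes are dim. Probes differ in how strongly they bind, so a rank orders signals and not numbers of RNA molecules. The precision of a mean is limited by the 3 arrays. Across genes, replicates 1 and 2 correlated with a Pearson r of 0.994, replicates 1 and 3 with 0.994 and replicates 2 and 3 with 0.990, a description in which genes are not independent. The median SD of a detected gene was 0.145.

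Breast epithelium is made of luminal cells, which face the duct and depend on hormone receptors, and of basal or myoepithelial cells around them. Carcinoma cells can lose adhesion between epithelial cells and take on a mesenchymal programme, with vimentin in place of E-cadherin, under transcription factors such as ZEB1 and SNAI2. Triple-negative tumours lack the oestrogen and progesterone receptors and do not amplify ERBB2, and their growth is then driven by other receptors, among them the epidermal growth factor receptor.

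The markers by which the line is known held on every array. VIM, the mesenchymal intermediate filament protein, had levels of 14.65, 14.62 and 14.57 on replicates 1, 2 and 3, the order kept for all values below. All 9 of its probes were above background, and it stood above 99.6% of the genes, at rank 86. CD44, a hyaluronan receptor of the cell surface, measured 11.05, 10.76 and 10.85 with 18 of 18 probes above background, above 94.4% of the genes. EGFR, the epidermal growth factor receptor, measured 9.12, 9.06 and 9.04 with 31 of 31 probes, above 81.0%. CDH1, which encodes E-cadherin, measured 6.07, 6.24 and 6.06 and stood above 37.2% of the genes. The first 3 markers were thus read by every probe and CDH1 by few. Of 16 CDH1 probes, 7 were above background on all arrays, and 2 of those were bright, with means of 13.60 and 11.94. The other 14 had means of 7.05 or less. On the median of its probes in place of the mean CDH1 stood above 28.6% of the genes. Whether those 2 probes read E-cadherin RNA was not tested.

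The mesenchymal list held 27 detected genes of 32 measured, beside 68.8% of all genes, and 19 of the 32 had every probe above background. Its median level was 8.61, at the 74.9th percentile for the median member, while the median over all genes was 6.97. After VIM the highest members were CAV1, the coat protein of caveolae, at 13.35 ± 0.12 (SD, n = 3), and CCN1, a matricellular protein, at 13.25 ± 0.32. S100A4, a calcium-binding protein tied to motility, followed at 13.08 ± 0.08. Secreted and matrix genes were also bright. THBS1, thrombospondin, measured 12.52, 12.44 and 12.89. FN1, fibronectin, had 50 of 50 probes above background and measured 9.15, 9.49 and 10.03. For both of these matrix genes replicate 3 was the highest, and the SD of 0.45 for FN1 was the largest among the detected genes of the list.

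Among the transcription factors that repress epithelial genes, SNAI2, ZEB1 and SNAI1 had the highest levels of those described here. SNAI2, also called Slug, measured 8.89, 8.59 and 8.92 with 4 of 4 probes above background. ZEB1 measured 8.15, 7.75 and 8.24 with 11 of 12, and SNAI1, or Snail, 7.60, 7.57 and 7.06 with 3 of 3. ZEB2 was detected only at the limit, with 5 of 10 probes and a level of 5.75 ± 0.22, and TWIST1 had 1 of 2 probes at 4.83 ± 0.15. TWIST2 had no probe above background, at 4.52 ± 0.43. Detection was thus not uniform over the list. CDH2, or N-cadherin, measured 4.94, 5.09 and 4.97 with 6 of 17 probes. COL6A3, a chain of collagen VI, had 8 of 43 probes at 4.93 ± 0.01, while its partner chains COL6A1 and COL6A2 had 27 of 29 and 28 of 28 probes at 7.69 ± 0.16 and 7.70 ± 0.13. CDH11, the cadherin of osteoblasts and mesenchyme, was detected by 13 of 13 probes at 8.45, 8.38 and 8.40. Among 23 cadherin genes, a family chosen after the values were seen, CDH11 had the highest level. Of the 23, 7 were detected, or 30.4% beside 68.8% of all genes.

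**Figure D1:**
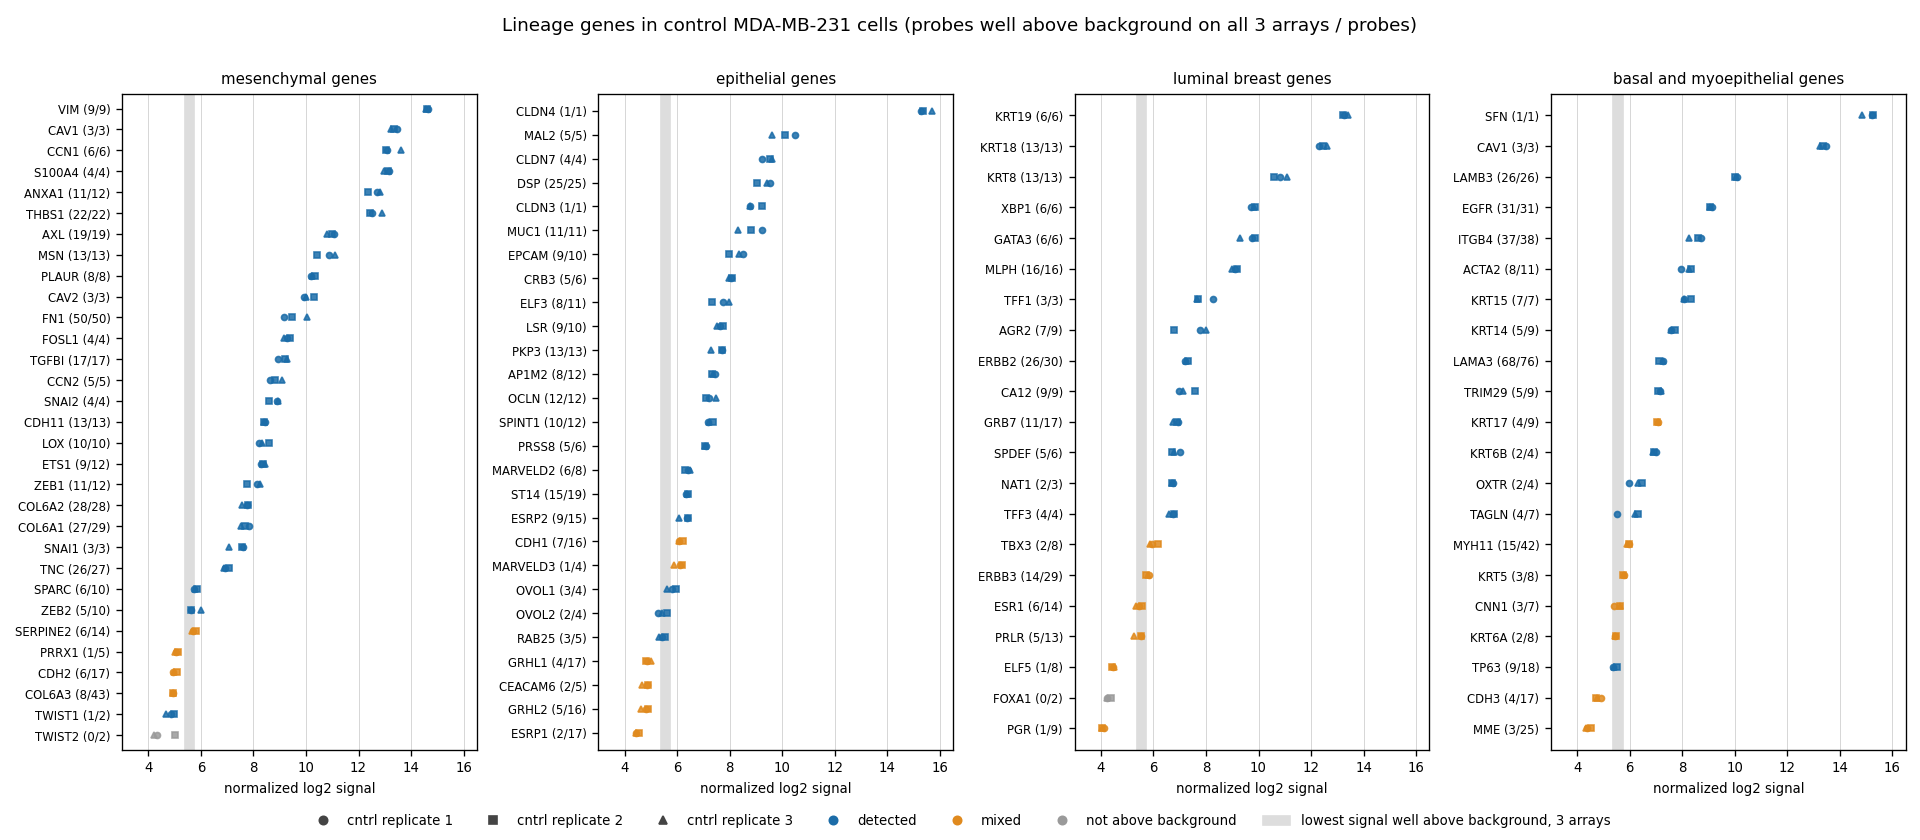
Normalized log2 signal of genes of the mesenchymal, epithelial, luminal and basal lists, with 1 point per cntrl array (circle, square and triangle for replicates 1, 2 and 3), coloured by detection, and the grey band at the lowest signals well above background, 5.38 to 5.73. VIM, CLDN4, KRT19 and SFN head their lists, and CDH1, ESR1, PGR and CDH2 lie near or below the band.

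Epithelial genes were not absent from these cells. Of 28 measured, 22 were detected, beside 68.8% of all genes. However, only 9 had every probe above background, and the median level was 7.26, at the 54.3rd percentile. Olfactory receptor genes, chosen for comparison after the values were seen, had a 95th percentile of 6.53. A mean level above it was reached by 16 of the 28 epithelial genes and by 11721 of all 20708 genes. CLDN4, a tight junction claudin, measured 15.29, 15.35 and 15.68. This rests on 1 probe. With several probes each, MAL2, a protein of apical transport, measured 10.49, 10.10 and 9.62 and CLDN7, another claudin, 9.24, 9.52 and 9.62. DSP, the desmosomal plaque protein desmoplakin, was read by 25 of 25 probes at 9.54, 9.06 and 9.41. MUC1, the transmembrane mucin, was read by 11 of 11 probes at 9.22, 8.82 and 8.30 and varied most in the list. EPCAM, the epithelial adhesion molecule, had 9 of 10 probes above background and measured 8.52, 7.99 and 8.34. These genes lay well above the level of CDH1.

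Several regulators of the epithelial state stood at the other end. ESRP1, which directs epithelial splicing, measured 4.44, 4.53 and 4.41 with 2 of 17 probes above background. GRHL2 and GRHL1, grainyhead factors that maintain epithelial junctions, measured 4.78 ± 0.12 and 4.88 ± 0.09 with 5 of 16 and 4 of 17 probes. The paralog ESRP2 was detected by 9 of 15 probes at 6.28 ± 0.18, and OVOL1 and OVOL2, which oppose the mesenchymal programme, by 3 of 4 and 2 of 4 probes at 5.79 ± 0.18 and 5.43 ± 0.17. CEACAM6, an adhesion molecule, had 2 of 5 probes at 4.80 ± 0.12. ELF3, an epithelial ETS factor, was higher, at 7.74, 7.32 and 7.96. Within the list, then, detection was firm for CLDN7, desmoplakin, EPCAM and mucin and thin for E-cadherin, ESRP1 and the grainyhead factors. The claudins CLDN4 and CLDN3 were detected on 1 probe each. Replicates did not separate the genes, since replicate 1, 2 or 3 was the highest for 6, 10 and 6 of the 22 detected. Whether these transcripts come from every cell or from few cells cannot be told apart in bulk RNA, and more generally fewer cells of a type and less RNA per cell cannot be told apart here.

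Intermediate filaments gave both programmes at once. VIM was followed in the list by KRT19, KRT18 and KRT7, keratins of simple and luminal epithelium. KRT19 measured 13.26, 13.23 and 13.41 with 6 of 6 probes, KRT18 measured 12.30, 12.44 and 12.60 with 13 of 13, and KRT7 measured 12.05, 12.12 and 12.39 with 9 of 9. KRT8, the partner of KRT18, stood at 10.83 ± 0.24 with 13 of 13 probes. KRT8, the lowest of these 4 simple keratins, was above 94.2% of the genes. KRT80 was detected at 9.20 ± 0.07, with all probes above background. Keratins of the basal and myoepithelial list were lower than the 4 simple keratins. The highest of them was KRT15, at 8.16 ± 0.16 with 7 of 7 probes. KRT14 stood at 7.62 ± 0.10 with 5 of 9 probes, KRT17 at 7.06 ± 0.03 with 4 of 9 and KRT6B at 6.94 ± 0.05 with 2 of 4. KRT5 stood at 5.77 ± 0.01 with 3 of 8 and KRT6A at 5.45 ± 0.02 with 2 of 8. The partner of KRT14 in basal cells is KRT5, and most of its probes were dim. KRT6A, KRT6B, KRT6C, KRT14, KRT16 and KRT17 are close paralogs, and probes may read more than one of them. In the whole list 20 of 38 genes were detected, or 52.6% beside 68.8% of all genes, and the lowest 6, among them NEFL, NEFM, KRT20 and KRT24, lay between 4.34 and 4.73. NEFH, the heavy neurofilament chain, stood higher at 6.71 with 2 of 5 probes.

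Of 22 luminal genes measured, 14 were detected, or 63.6% beside 68.8% of all genes, and 9 had every probe above background. GATA3, a transcription factor of luminal cells, measured 9.77, 9.87 and 9.30 with 6 of 6 probes. XBP1, a factor of the secretory pathway, stood at 9.80 ± 0.09 with 6 of 6, and MLPH, a linker in organelle transport, at 9.10 ± 0.09 with 16 of 16. TFF1, a secreted peptide that oestrogen induces in luminal cells, measured 8.26, 7.70 and 7.64 with 3 of 3 probes, and AGR2, a disulfide isomerase, stood at 7.51 ± 0.66, lowest on replicate 2. The SD of AGR2 was the largest among the detected genes of this list. The luminal pioneer factor FOXA1 had no probe above background on any array, with values of 4.23, 4.38 and 4.23. ELF5, a factor of luminal progenitors, had 1 of 8 probes at 4.46 ± 0.04.

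Hormone receptors were dim, as measured over their exons. ESR1, oestrogen receptor alpha, measured 5.46, 5.56 and 5.35 with 6 of 14 probes above background, and its brightest probe had a mean of 8.36. PGR, the progesterone receptor, measured 4.12, 4.06 and 4.04 with 1 of 9 probes, and its brightest probe had 5.90. ERBB2 was detected, at 7.20, 7.31 and 7.22 with 26 of 30 probes above background, above 54.1% of the genes. ESR1 lay above 26.7% of the genes and PGR above 5.5%. For comparison, olfactory receptor genes, which breast cells are not known to use and which were chosen after the values were seen, had a median level of 4.04 and a 95th percentile of 6.53, and 50 of 343 were detected. ESR1 and PGR were under that 95th percentile and ERBB2 was above it.

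Among all 48 nuclear receptors, 25 were detected, fewer in share than the 68.8% of all genes. The highest were NR2F6 at 10.06, 10.20 and 9.63 and NR2F2 at 9.81, 10.05 and 9.61, orphan receptors of the COUP-TF group. RXRB, a shared partner of many receptors, stood at 9.29 ± 0.16. NR3C1, the glucocorticoid receptor, measured 9.23, 9.08 and 9.05 with 12 of 14 probes above background and was the highest steroid receptor of the list. NR1D2, a clock gene, stood at 9.09 ± 0.10. VDR, the vitamin D receptor, was detected by 9 of 11 probes at 6.64 ± 0.18, and RARA, the retinoic acid receptor alpha, by 13 of 13 at 8.31 ± 0.21, whereas RARB had 1 of 13 probes at 4.83 ± 0.02. The lowest were NR0B1, with 0 of 3 probes at 3.81 ± 0.18, HNF4G at 4.00 ± 0.10 and PGR. The immediate-early receptor NR4A2 varied most among the detected, at 8.22, 7.54 and 7.63.

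Basal and myoepithelial genes were detected in 15 of 22 cases, close to the share over all genes, and 5 had every probe above background. SFN, the 14-3-3 sigma protein of epithelial cells, measured 15.22, 15.25 and 14.85 on 1 probe. Chains of the laminin that anchors basal cells were detected, LAMB3 by 26 of 26 probes at 10.04 ± 0.04 and LAMA3 by 68 of 76 at 7.21 ± 0.10. ITGB4, the integrin chain that binds this laminin, had 37 of 38 probes at 8.52 ± 0.22. Other genes of basal cells and of myoepithelium differed in level. TP63, the basal master regulator, had 9 of 18 probes at 5.43 ± 0.06, CDH3, P-cadherin, 4 of 17 at 4.78 ± 0.09, MYH11, smooth muscle myosin, 15 of 42 at 5.95 ± 0.06, and MME, the CD10 antigen, 3 of 25 at 4.42 ± 0.10. ACTA2, smooth muscle actin, was detected at 7.96, 8.35 and 8.27.

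Surface and stem cell genes showed high CD44 beside low CD24. CD24, a small surface protein, measured 5.15, 4.34 and 5.13, with 1 of 4 probes above background on all 3 arrays and replicate 2 the lowest. MYC stood at 10.84 ± 0.07 with 4 of 4 probes, NT5E, the CD73 ectonucleotidase, at 10.42 ± 0.20 and PROCR, the protein C receptor, at 9.73 ± 0.12 with 5 of 5. SOX9 measured 9.47, 9.59 and 9.27 with 3 of 3 probes. PROM1, or CD133, had 1 of 23 probes above background at 4.26 ± 0.13, NANOG 1 of 9 at 4.43 ± 0.06, ALDH1A1 2 of 13 at 4.56 ± 0.06 and LGR5 5 of 18 at 5.56 ± 0.13, while ALDH1A3 was detected by 9 of 14 at 6.83 ± 0.06. Of the 18 genes of the list 12 were detected, or 66.7%, close to the 68.8% of all genes.

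Receptor tyrosine kinases carry growth signals across the membrane, and each cell type uses few of the family. Of 58 measured, 29 were detected, a share of 50.0% below the 68.8% of all genes, and 9 had every probe above background. AXL, the receptor of GAS6, led with 11.05, 11.01 and 10.79 and 19 of 19 probes, above 94.7% of the genes. ROR1, a receptor of WNT5A, measured 10.31, 10.19 and 9.80 with 10 of 10, MET, the receptor of hepatocyte growth factor, 9.81, 9.68 and 10.19 with 21 of 22, and EPHA2, an ephrin receptor, 9.65, 9.70 and 9.59 with 17 of 17. EGFR came next, and EPHB2 followed at 9.01, 9.01 and 8.65. The order of ROR1 and MET does not hold on each array, since MET was the higher on replicate 3, nor does that of MET and EPHA2, since EPHA2 was the higher on replicate 2, and the levels of EPHB2 and EGFR lie within 0.4 of each other on each array. FGFR1 was read by 23 of 23 probes at 8.27 ± 0.17 and DDR1, a collagen receptor, by 19 of 19 at 8.30 ± 0.07. INSR and IGF1R, the insulin and IGF receptors, stood at 7.16 ± 0.01 and 7.03 ± 0.10.

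Paralogs within receptor families differed widely. In the ERBB family EGFR was read by 31 of 31 probes and ERBB2 by 26 of 30, whereas ERBB3 had 14 of 29 at 5.78 ± 0.07 and ERBB4 6 of 29 at 4.69 ± 0.05. In the TAM family AXL stood at 10.95 ± 0.14 and TYRO3 at 7.37 ± 0.15 with 16 of 19 probes, and MERTK had 7 of 19 at 5.33 ± 0.08. ROR2, with 1 of 8 probes, stood at 4.74 ± 0.08. FGFR2 and FGFR3 had 5 of 22 and 7 of 18 probes at 5.11 ± 0.13 and 5.74 ± 0.06, and FGFR4 was detected by 14 of 21 at 6.68 ± 0.17. Receptors known from other lineages were found on both sides. CSF1R, of macrophages, was detected by 15 of 21 probes at 6.05 ± 0.16 and PDGFRB, of fibroblasts and pericytes, by 12 of 23 at 6.19 ± 0.12. NTRK3, of neurons, was detected by 16 of 21 at 5.89 ± 0.17. CSF1R, PDGFRB and NTRK3 all lay under the 95th percentile of the olfactory receptor genes, 6.53. A mean level above it was reached by 21 of the 58 kinases and by 11721 of all 20708 genes. KIT, of mast and germ cells, measured 4.03, 3.95 and 4.01 with 3 of 23 probes, EPHA3 4.07 ± 0.09, EPHA7 4.13 ± 0.11, and PDGFRA, of fibroblasts, 4.20 ± 0.05 with 1 of 24. The vascular receptors KDR, FLT1 and TEK had 5 of 31, 4 of 30 and 3 of 24 probes above background. On replicate 3 the level was the lowest in 23 of the 29 detected kinases, and on replicate 2 the highest in 18. Over all detected genes replicate 3 was the lowest for 42.8% and replicate 2 the highest for 43.5%.

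**Figure D2:**
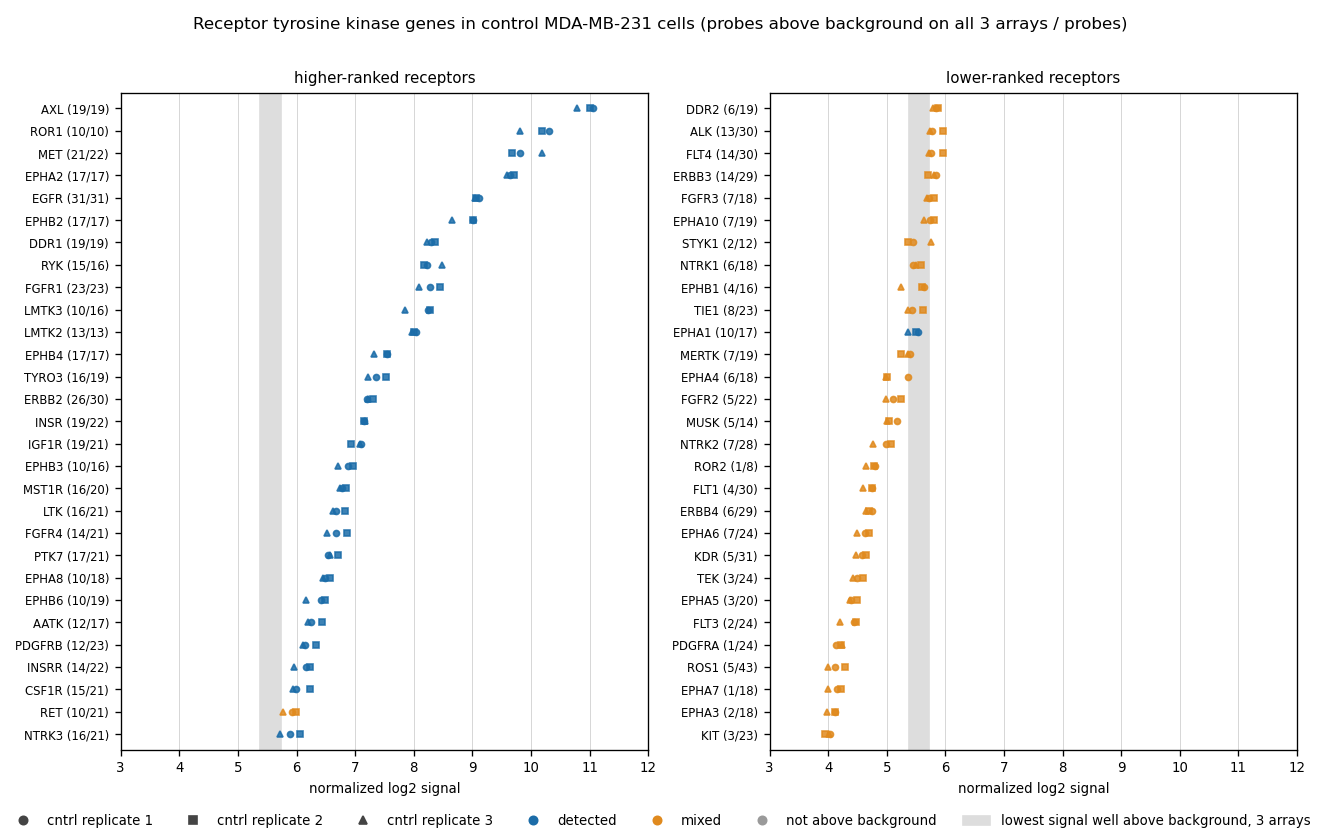
Normalized log2 signal of the 58 receptor tyrosine kinase genes on the 3 cntrl arrays, sorted by mean level, with the number of probes above background on all 3 arrays beside each name and the grey band as in the plot of lineage genes. AXL, ROR1, MET, EPHA2 and EGFR head the family, and 29 of the 58 were detected.

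Ligands of the ERBB receptors ranged widely. AREG, amphiregulin, measured 10.86, 10.40 and 10.49, HBEGF, heparin-binding EGF, 9.89, 9.79 and 10.21, and TGFA, transforming growth factor alpha, 9.09, 9.06 and 9.04, each with 6 of 6 probes above background. EREG, epiregulin, measured 8.72, 8.01 and 8.06 with 5 of 5 probes and NRG1, neuregulin 1, 8.16, 8.14 and 7.87 with 16 of 18. These 5 were the detected members of 11, or 45.5% beside 68.8% of all genes. EGF itself had 0 of 23 probes above background on all arrays at 4.18, 4.20 and 4.14. NRG2, NRG3, NRG4, BTC and EPGN stood between 4.36 and 5.40. ADAM17 and ADAM10, the proteases that release such ligands from the surface, were detected by 18 of 19 and 16 of 16 probes at 8.19 ± 0.32 and 10.11 ± 0.35.

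Below the receptors, the RAS and MAP kinase cascade was detected nearly in full, with 27 of 28 genes against 68.8% of all. HRAS measured 12.21, 12.34 and 11.95 with 8 of 8 probes above background, and NRAS 9.22, 9.10 and 9.24 with 8 of 9. RRAS, a related GTPase, stood at 11.93 ± 0.09. The RAF kinases ARAF and BRAF stood at 9.05 ± 0.20 and 7.93 ± 0.15. MAP2K2 and MAP2K1, which activate ERK, stood at 11.12 ± 0.11 and 8.72 ± 0.22, and MAPK3, an ERK gene, at 8.90 ± 0.26. The scaffold KSR1 was the single member not detected, at 6.08 ± 0.10 with 8 of 20 probes, and the feedback inhibitors SPRY1 and SPRED2 were the lowest detected members, at 6.97 ± 0.24 and 7.12 ± 0.26. Genes that ERK signalling induces were detected in 9 of 10 cases. The highest were CCND1, cyclin D1, at 11.29, 11.37 and 11.29, PHLDA1 at 10.49, 10.41 and 10.29, and DUSP6, a phosphatase of ERK, at 10.55, 10.16 and 10.41. The feedback inhibitor SPRY2 and the ETS factors ETV5 and ETV4 stood at 9.15 ± 0.02, 8.21 ± 0.04 and 7.82 ± 0.22. SPRY4, of the same family as SPRY2, stood at 7.94 ± 0.09. EPHA4 was the exception, at 5.11 ± 0.21 with 6 of 18 probes. FOSL1, the AP-1 subunit FRA1, was read by 4 of 4 probes at 9.28 ± 0.12, and all 7 FOS and JUN genes, chosen after the values were seen, were detected, from FOSB at 7.13 to JUND at 12.53.

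In the PI3K and AKT pathway 20 of 22 genes were detected, or 90.9% beside 68.8% of all genes. RHEB, the GTPase that activates mTOR, and EIF4EBP1, its translational target, led with 11.90 ± 0.07 and 11.38 ± 0.11. INPP4B, a phosphatase that opposes PI3K, measured 9.56, 9.34 and 9.73 with 26 of 26 probes. The kinases AKT1 and AKT2 were detected at 8.81 ± 0.13 and 8.51 ± 0.31. Of the catalytic subunits PIK3CA stood at 7.33 ± 0.36, PIK3CB at 7.22 ± 0.41 and PIK3CD at 6.64 ± 0.07, whereas the leukocyte form PIK3CG had 1 of 11 probes at 4.42 ± 0.13. PIK3R3, a regulatory subunit, had 5 of 13 at 5.31 ± 0.07, and PHLPP1, a phosphatase of AKT, 15 of 19 at 6.37 ± 0.13. PIK3CA and PIK3CB were lowest on replicate 2, at 6.92 and 6.75, against 7.37 to 7.61 on the other arrays. This replicate was the lowest for 51.4% of the 1627 detected genes with over 20 probes and for 23.0% of the 1825 with 1 to 2 probes, so genes with many probes were more often lowest on it. Whether RNA quality has a part in this was not tested.

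Of 26 secreted cytokines and chemokines measured, 23 were detected, beside 68.8% of all genes, and 14 had every probe above background. The list was chosen with earlier results of these data known, so this share does not describe cytokines in general. MIF, the macrophage inhibitory factor that many cells make, measured 14.52, 14.65 and 14.99. IL6 measured 11.74, 11.50 and 11.76 with 5 of 5 probes. The neutrophil chemokines of the CXC group were high: CXCL1 measured 10.83, 11.59 and 11.77, CXCL8 10.77, 11.25 and 12.10, CXCL2 10.38, 10.65 and 10.87 and CXCL3 7.80, 8.20 and 8.41, with all probes above background. Each of these 4 was lowest on replicate 1 and highest on replicate 3. CSF1, CSF2 and CSF3, growth factors of macrophages and granulocytes, stood at 10.32 ± 0.25, 10.05 ± 0.32 and 7.23 ± 0.41, IL11 at 9.54 ± 0.19, IL32 at 10.66 ± 0.09 and TNFSF10, the TRAIL ligand, at 9.36 ± 0.48. IL1B and IL1A measured 6.50, 6.63 and 7.48 and 6.33, 6.52 and 7.23. CXCL10, the interferon-induced chemokine, had 0 of 4 probes above background at 3.80 ± 0.06, CCL20 0 of 4 at 4.55 ± 0.20 and CXCL12 2 of 6 at 4.84 ± 0.19. The replicates differed more here than elsewhere. Replicate 1 was the lowest for 16 of the 23 detected cytokines against 24.4% of all detected genes, and 9 of the 23 had an SD over 0.3 against 9.69% of all detected genes. CCL2, the monocyte chemokine, measured 7.09, 8.61 and 7.70, and its SD of 0.76 was the largest of the list.

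**Figure D3:**
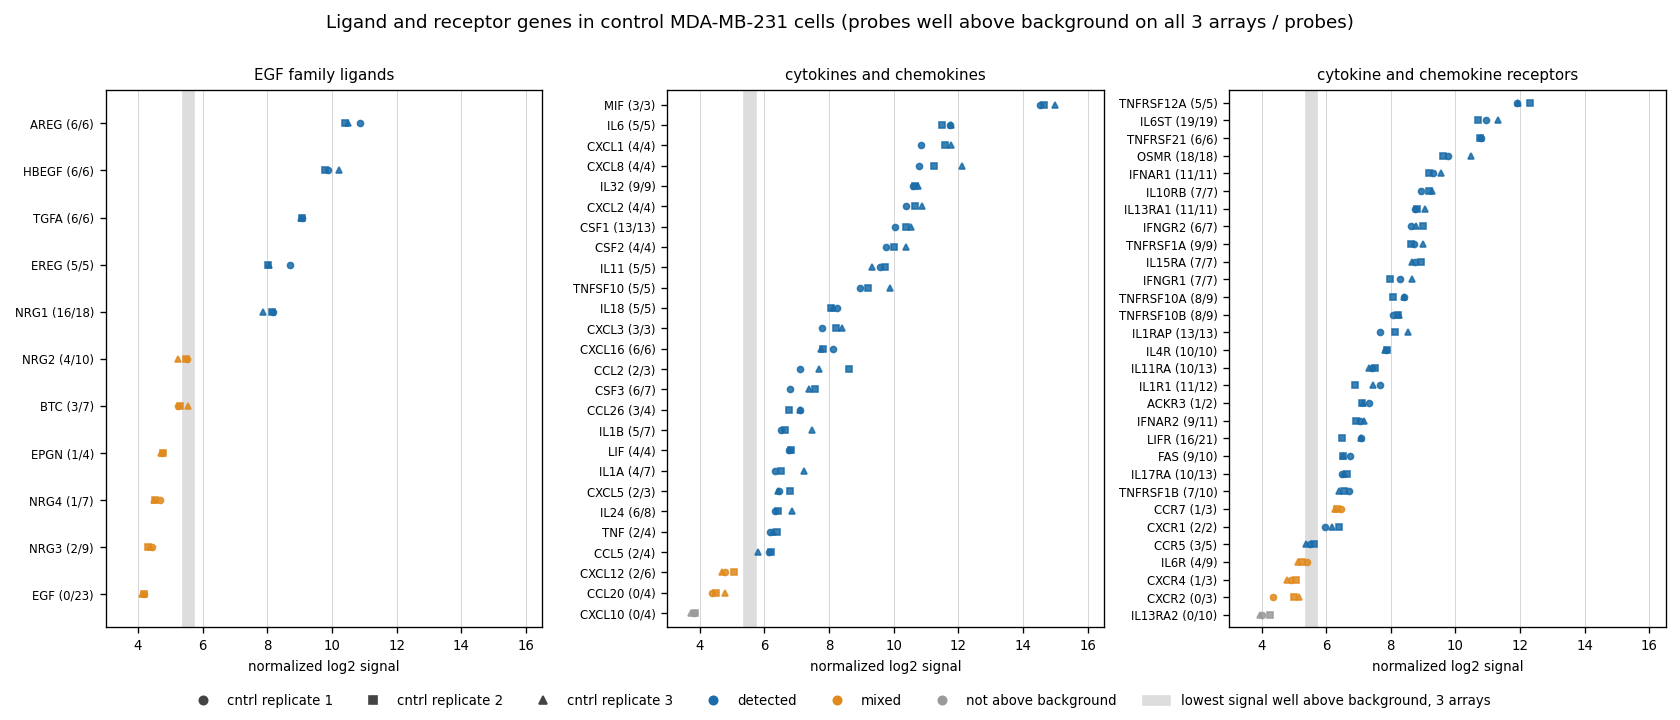
Normalized log2 signal of EGF family ligands, cytokines and chemokines, and cytokine and chemokine receptors on the 3 cntrl arrays, with symbols, colours and the grey band as in the plot of lineage genes. AREG and HBEGF stand far above EGF, IL6, CXCL1 and CXCL8 are bright beside a dim CXCL10, and IL6ST is high where IL6R is low.

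Promoters of CXCL8, CXCL1, IL6 and CXCL10 are shown because the first 3 encode the highest detected cytokines after MIF and CXCL10 the lowest of the list. They are the 250 bases before the gene start from RefSeq on GRCh38.p14, 5′ to 3′ on the strand of the gene. Capitals mark matches to an AP-1 motif, TGANTCA, or to an NF-kB type motif, GGNNNTTCC, searched on both strands. The motifs have no common stretch and may overlap each other.
CXCL8, chr4:73740319-73740568, plus strand: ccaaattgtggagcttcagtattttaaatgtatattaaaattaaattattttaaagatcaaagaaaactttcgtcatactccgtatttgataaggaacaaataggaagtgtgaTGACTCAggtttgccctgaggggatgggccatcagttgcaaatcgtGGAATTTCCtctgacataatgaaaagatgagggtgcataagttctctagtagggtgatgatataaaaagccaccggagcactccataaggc
CXCL1, chr4:73869143-73869392, plus strand: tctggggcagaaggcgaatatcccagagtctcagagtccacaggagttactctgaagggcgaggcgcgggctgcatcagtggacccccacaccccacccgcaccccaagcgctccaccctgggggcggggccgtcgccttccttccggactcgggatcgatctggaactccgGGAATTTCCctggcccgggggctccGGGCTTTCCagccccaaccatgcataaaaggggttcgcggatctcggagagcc
IL6, chr7:22726950-22727199, plus strand: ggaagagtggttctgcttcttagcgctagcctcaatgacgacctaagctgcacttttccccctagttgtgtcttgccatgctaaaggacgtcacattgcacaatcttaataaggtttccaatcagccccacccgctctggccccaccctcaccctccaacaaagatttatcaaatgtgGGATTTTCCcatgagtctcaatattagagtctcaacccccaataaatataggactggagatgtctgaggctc
CXCL10, chr4:76023498-76023747, minus strand: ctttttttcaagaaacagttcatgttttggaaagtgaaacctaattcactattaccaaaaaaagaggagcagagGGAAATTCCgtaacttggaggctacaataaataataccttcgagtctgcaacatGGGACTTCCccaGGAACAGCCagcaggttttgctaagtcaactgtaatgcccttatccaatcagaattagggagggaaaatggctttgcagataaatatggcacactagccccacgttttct

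The CXCL8 window holds 1 AP-1 match, which begins 137 bases before the start, and 1 NF-kB type match at 91 bases. CXCL1 holds 2 NF-kB type matches, at 78 and 53 bases, IL6 holds 1 at 72 bases and CXCL10 holds 3, at 176, 122 and 110 bases. CXCL10, the dim gene, held the most matches of the 4. Of 19 cytokines of the list with a promoter in the table, 10 held the NF-kB type motif, 3 the AP-1 motif and 7 neither. Over all 35116 promoter windows of the same length 17.1% held the NF-kB type motif and 6.57% the AP-1 motif. A match describes letters only, and binding was not measured.

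The receptors of cytokines were detected in 25 of 30 cases, or 83.3% beside 68.8% of all genes. IL6ST, the signalling chain gp130 of the IL6 family, measured 10.95, 10.71 and 11.32 with 19 of 19 probes, and OSMR, the oncostatin M receptor, 9.77, 9.61 and 10.49 with 18 of 18. IL6R, the specific chain of IL6, had 4 of 9 probes at 5.40, 5.27 and 5.14. LIFR and IL11RA were detected at 6.88 ± 0.35 and 7.41 ± 0.09. The cells thus showed IL6 and its shared signalling chain far above the specific chain. TNFRSF12A, the TWEAK receptor, was the highest of the list at 11.91, 12.31 and 11.94, and the TRAIL death receptors TNFRSF10A and TNFRSF10B stood at 8.29 ± 0.20 and 8.18 ± 0.11. Chemokine receptors were low. CXCR4 had 1 of 3 probes at 4.92 ± 0.14, CXCR2, the receptor of CXCL1 and CXCL8, 0 of 3 at 4.84 ± 0.43 and CXCR1 2 of 2 at 6.18 ± 0.20. TNFRSF21, or death receptor 6, stood at 10.78 ± 0.02. IL13RA2 was the lowest at 4.08 ± 0.16.

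In TGF-beta signalling 25 of 30 genes were detected, again 83.3% beside 68.8%. The ligands GDF15, BMP4 and TGFB2 were the highest. GDF15, a stress-induced factor, measured 10.13, 10.54 and 10.56, BMP4 measured 10.40, 10.31 and 10.15, and TGFB2 9.63, 9.71 and 10.56, against 8.53, 8.63 and 8.01 for TGFB1 and 5.45 ± 0.10 for TGFB3. SMAD7, the inhibitory SMAD, measured 10.18, 10.25 and 9.44 and was above the receptor-regulated SMAD2 and SMAD3 at 8.80 ± 0.06 and 8.52 ± 0.13. TGFBR1 and TGFBR2, the receptor pair, were detected at 8.65 ± 0.10 and 8.96 ± 0.12, and SMAD4, the common partner, by 12 of 12 probes at 8.29 ± 0.02. BMPR1B, BMP6 and SMAD9 were the lowest, between 4.48 and 5.13. BMPR1A, the paralog of BMPR1B, was read by 19 of 19 probes at 8.36 ± 0.11.

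The WNT list had 23 detected of 37, or 62.2% beside 68.8% of all genes. Its highest member was DKK1, a secreted inhibitor of the pathway, at 12.02, 12.32 and 12.57 with 4 of 4 probes. CTNNB1, beta-catenin, measured 9.35, 9.56 and 9.94. Among frizzled receptors FZD7 measured 11.43, 11.71 and 10.47 on 1 probe, FZD2 10.65, 10.76 and 10.68 on 2, FZD1 9.66 ± 0.49 on 1 and FZD6 8.70 ± 0.24 on 7, and FZD8, FZD9 and FZD10 were not above background on their 1 probe each, between 3.63 and 4.28. The WNT ligands lay lower, led by WNT6 at 8.06 ± 0.14 and WNT10A at 7.96 ± 0.09. AXIN2, which WNT signalling induces, had 5 of 11 probes at 5.71 ± 0.12.

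Integrins and proteases make up the equipment for contact with matrix. Of 26 integrin genes 18 were detected, or 69.2% beside 68.8% of all genes. A mean level above the 95th percentile of the olfactory receptor genes was reached by 9 of the 26, and by 11721 of all 20708 genes. ITGB1, the chain shared by most, measured 12.17, 11.80 and 12.62. Its partners ITGA3, ITGA6, ITGAV, ITGA5 and ITGA2 stood at 11.22 ± 0.22, 10.07 ± 0.07, 9.17 ± 0.29, 8.86 ± 0.20 and 8.66 ± 0.12, with at most 1 probe of each dim. These bind laminin, fibronectin, vitronectin and collagen. ITGA4, of leukocytes, had 0 of 28 probes above background on all arrays at 3.89 ± 0.05, ITGA8 2 of 30 at 4.18 ± 0.08 and ITGB6, of wounded epithelium, 3 of 19 at 4.40 ± 0.04. ITGB5, which like ITGB1 and ITGB6 can pair with ITGAV, stood at 9.53 ± 0.13. Which beta chain pairs with ITGAV in these cells was not measured.

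Of 27 genes of proteases and their inhibitors 19 were detected, or 70.4% beside 68.8% of all genes. CTSD, cathepsin D, measured 13.19, 13.31 and 13.46, and the inhibitors TIMP2 and TIMP1 12.42 ± 0.27 and 12.18 ± 0.13. PLAU, or urokinase, measured 10.32, 10.69 and 10.62, and its receptor PLAUR 10.20, 10.34 and 10.22. MMP14, the membrane-bound metalloprotease, measured 9.81, 9.66 and 9.98 with 10 of 10 probes. Secreted metalloproteases were low. MMP1 measured 4.64, 4.26 and 4.03 with 1 of 10 probes, MMP2 4.82 ± 0.03 with 3 of 13, MMP3 3.92 ± 0.07 with 1 of 9, MMP10 3.98 ± 0.07 with 1 of 10 and MMP13 4.22 ± 0.01 with 2 of 10. MMP9 was detected by 9 of 13 probes at 6.31 ± 0.14, under the 95th percentile of the olfactory receptor genes.

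Genes of antigen presentation were detected in 19 of 22 cases, or 86.4% beside 68.8% of all genes. B2M, the light chain of class I molecules, stood at 15.14 ± 0.11. HLA-C and HLA-B, whose probes may read the RNA of other class I genes because these are alike, stood at 14.55 ± 0.17 and 13.17 ± 0.26. Class II genes, which are known from professional antigen-presenting cells and appear in some carcinomas, were also detected: CD74, the invariant chain, measured 11.73, 11.60 and 11.62 with 9 of 9 probes, HLA-DRA 11.50, 10.94 and 11.21 with 5 of 5 and HLA-DPA1 9.91, 9.72 and 9.65 with 6 of 7. Their regulator CIITA was read by 16 of 20 probes at 6.94 ± 0.19. CD274, the checkpoint ligand PD-L1, measured 6.99, 6.49 and 7.46 and CD276, or B7-H3, 8.06 ± 0.06. PDCD1LG2, or PD-L2, had 2 of 8 probes at 5.64 ± 0.23. The costimulators CD80 and CD86, of antigen-presenting leukocytes, had 1 of 6 and 2 of 7 probes at 4.21 ± 0.13 and 4.84 ± 0.03, and PTPRC, the leukocyte marker CD45, had 5 of 33 at 4.45 ± 0.09. CD68 and CD3E, of the leukocyte list, were detected at 8.85 ± 0.26 and 6.83 ± 0.13. The part of leukocyte RNA in the class II signal was not tested.

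Tumour suppressors were detected in 18 of 22 cases, or 81.8% beside 68.8% of all genes. CDKN1B, the inhibitor p27, measured 10.10, 9.77 and 9.92, and RB1, the retinoblastoma protein, 8.16, 8.10 and 8.39 with 23 of 25. VHL, which limits the hypoxia response, stood at 9.79 ± 0.09 and NF2, which encodes merlin, at 5.91 ± 0.13 with 10 of 20 probes. BRCA1 and BRCA2, of DNA repair, stood at 6.84 ± 0.24 and 6.88 ± 0.19, and NF1, the brake on RAS, at 7.30 ± 0.37 with 54 of 63 probes. The members not detected were CDH1 and 3 neighbours on 9p21. CDKN2A, which encodes p16 and ARF, stood at 6.07 ± 0.11 with 1 of 5 probes above background on all arrays. CDKN2B, which encodes p15, measured 4.59, 4.53 and 4.62 with 1 of 5, and MTAP, an enzyme of methionine salvage, 4.41, 4.44 and 4.37 with 1 of 7. By contrast their paralogs CDKN2C and CDKN2D were read by 4 of 5 and 3 of 3 probes at 8.89 ± 0.27 and 9.19 ± 0.22.

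The 9p21 list has 23 measured genes, of which 7 were detected, or 30.4% beside 68.8% of all genes. Of the 23, 10 had no probe above background on any array, beside 7.54% of all genes. The median level of the list, 4.77, lies at the 15.8th percentile. In the order of RefSeq, MLLT3 at one end had 9 of 11 probes above background at 7.09 ± 0.03. FOCAD, a large gene next to it, had 12 of 42 at 5.27, 5.20 and 5.39, and HACD4, an enzyme of fatty acid elongation, 2 of 7 at 4.77 ± 0.20. The 19 genes after FOCAD up to CDKN2B had 10 of 44 probes above background, or 22.7%, against 68.8% of all probes with a gene and 15.0% of the probes of olfactory receptor genes. Most of those 19 are type I interferon genes, which resting cells hardly use, and they have 1 to 3 probes each, with means from 3.54 for IFNW1 to 6.72 for IFNA5. The interferon alpha genes are near-identical copies, and a probe may read several of them. KLHL9, an adaptor of ubiquitin ligases inside the stretch, was detected by 1 of 2 probes at 6.44 ± 0.20. DMRTA1, on the other side, had 2 of 2 probes at 8.57, 8.75 and 8.90, and ELAVL2, a neuronal gene beyond it, 1 of 8. At CDKN2A a single probe was bright, at 10.81, 10.75 and 10.80, while the other 4 had means of 5.63 or less, and the brightest probe of MTAP had 6.90. Loss of this region is common in cancer lines, but DNA was not measured, and a missing gene and a silent one cannot be told apart on these arrays.

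**Figure D4:**
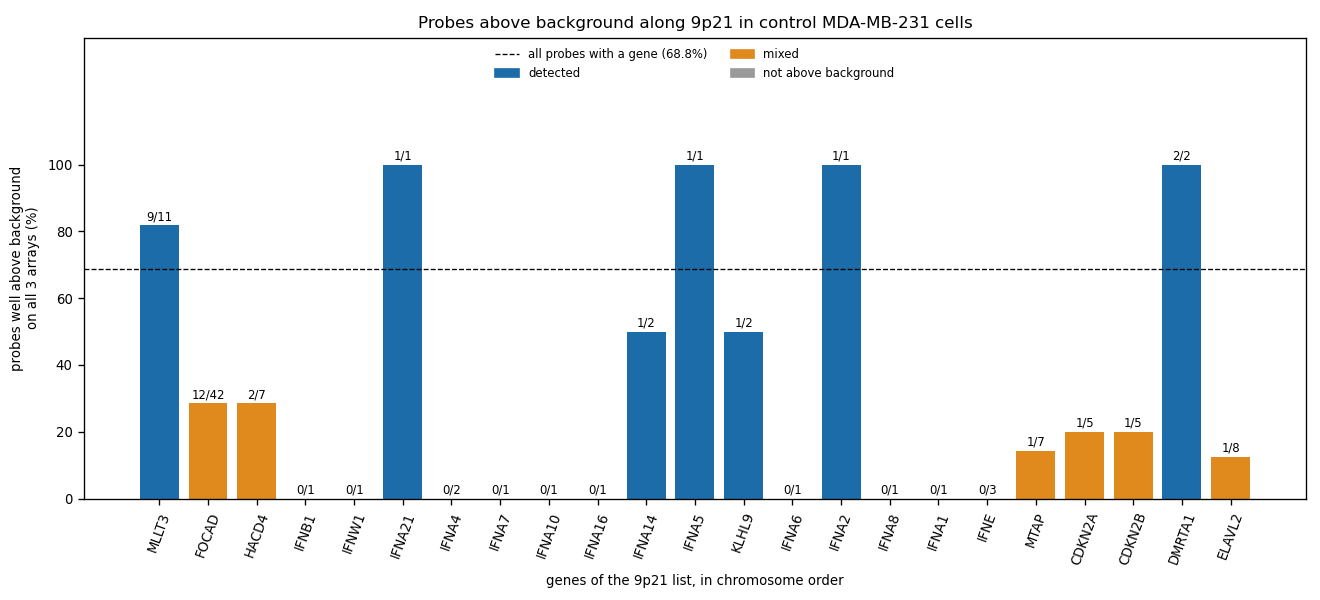
Share of probes well above background on all 3 cntrl arrays for the genes of the 9p21 list in chromosome order, with probes above background over probes on each bar and a dashed line at 68.8%, the share over all probes with a gene. Of the 19 genes after FOCAD up to CDKN2B, 10 lie at 0 and 3 interferon genes with 1 probe each at 100. FOCAD, next to the stretch, has 12 of 42 probes, and MLLT3 beyond FOCAD has 9 of 11. DMRTA1, on the other side, has 2 of 2.

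Glycolysis genes were detected in 20 of 21 cases, or 95.2% beside 68.8% of all genes, with a median level of 11.01. ENO1, enolase, measured 14.71, 14.66 and 15.06, GAPDH 13.78 ± 0.09 and LDHA, which makes lactate, 13.66 ± 0.03. TPI1, triose phosphate isomerase, stood at 13.74 ± 0.24, and ALDOC, an aldolase of brain, was the lowest detected enzyme at 7.20 ± 0.33. SLC2A1, the glucose carrier GLUT1, stood at 10.94 ± 0.05 with 11 of 11 probes and SLC2A3, or GLUT3, at 7.43 ± 0.09. The lactate carriers differed: SLC16A3, or MCT4, stood at 11.01 ± 0.03 with 7 of 7 probes, and SLC16A1, or MCT1, measured 4.03, 4.08 and 4.26 with 0 of 5. The 18 housekeeping genes were all detected, from POLR2A at 8.29 to B2M at 15.14. The 20 highest genes with at least 3 probes, all above background, were led by RNA28SN5, a ribosomal RNA, at 16.98 ± 0.04, and by FTL, the ferritin light chain, at 16.40 ± 0.10. They included 15 ribosomal protein genes, from RPS27 at 16.40 to RPS3 at 15.41, the actin-binding TMSB10 at 15.74 ± 0.16, FTH1, the ferritin heavy chain, at 15.60 ± 0.14 and NDUFA1 of the respiratory chain at 15.43 ± 0.10.

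The microRNA machinery was detected in full, with 14 of 14 genes, beside 68.8% of all genes. These 14 include CARMN, the transcript that hosts miR-145. AGO2, the slicing Argonaute, measured 9.21, 9.14 and 9.01 with 19 of 19 probes above background. Its paralogs AGO3, AGO1 and AGO4 stood at 8.19 ± 0.10, 7.26 ± 0.10 and 6.65 ± 0.17. TNRC6C, a partner of Argonautes in silencing, was read by 21 of 22 probes. XPO5, which exports precursors, DROSHA and DICER1, which cut them, stood at 9.19 ± 0.14, 9.08 ± 0.08 and 8.73 ± 0.19. Among the AGO2 probes 3 were bright, with means of 13.58, 12.39 and 11.91, and the others lay between 6.63 and 9.74, so the gene mean rests in part on few exons.

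Host transcripts of microRNAs were on the arrays, which do not measure mature microRNAs. Hosts were matched to microRNAs by position alone, without strand. The sequences below, from RefSeq on GRCh38.p14, are those of microRNAs whose hosts the text describes, written 5′ to 3′ with the seed, bases 2 to 8, in capitals.
hsa-miR-145-5p, in CARMN, chr5:149430661-149430683, plus strand: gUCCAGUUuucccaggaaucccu
hsa-miR-143-3p, in CARMN: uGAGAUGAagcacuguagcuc
hsa-miR-31-5p, in MIR31HG, chr9:21512158-21512178, minus strand: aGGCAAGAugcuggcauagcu
hsa-miR-100-5p, in MIR100HG: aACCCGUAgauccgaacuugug
hsa-miR-99a-5p, in MIR99AHG: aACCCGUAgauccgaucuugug
hsa-miR-125b-5p, in MIR100HG and MIR99AHG: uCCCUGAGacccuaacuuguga
hsa-miR-22-3p, in MIR22HG: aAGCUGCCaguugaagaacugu
hsa-miR-23a-3p, in MIR23AHG: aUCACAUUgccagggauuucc
hsa-miR-27a-3p, in MIR23AHG: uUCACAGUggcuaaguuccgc
hsa-miR-17-5p, in MIR17HG: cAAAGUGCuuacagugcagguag

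CARMN, the host of miR-145 and miR-143, microRNAs of smooth muscle that are low in many carcinomas, measured 6.69, 6.66 and 6.33 with 2 of 4 probes above background. Of 26 host transcripts, chosen by symbol after the values were seen, 14 were detected, or 53.8%. The share was 68.8% over all genes and 39.6% over long noncoding RNA genes. MIR23AHG measured 12.07, 11.48 and 11.77 with 2 of 2 probes, MIR22HG 9.02, 9.04 and 8.79 with 4 of 4 and MIR17HG, of the growth-linked cluster, 7.84, 8.12 and 7.86 on 1 probe. The pair MIR100HG and MIR99AHG carries microRNAs of the same seed, ACCCGUA in miR-100 and miR-99a, and each carries a copy of miR-125b. MIR100HG measured 8.91, 9.11 and 9.12 with 3 of 3 probes, whereas MIR99AHG had 0 of 10 above background on all arrays at 4.36, 4.38 and 4.22. MIR31HG, which lies in the 9p21 stretch, had 1 of 3 probes at 4.89, 5.16 and 4.74.

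Markers of cell types that the culture should lack were mostly dim. Of 12 leukocyte genes 2 were detected, of 10 endothelial genes 2, and of 12 adipocyte and hepatocyte and 12 melanocyte and neural genes 4 each. The summed signal of the leukocyte list ran from 9.78 to 10.04 on the log2 scale over the 3 arrays, and that of the endothelial list from 8.73 to 8.87. Endothelial genes ranged from 4.50 for TEK to 7.20 for ESAM, a junction protein. CD68, a lysosomal protein also made outside macrophages, gave 8.85 ± 0.26 and TUBB3, a tubulin common in carcinoma lines, 9.79 ± 0.15. PECAM1, an endothelial adhesion molecule, was detected by 1 of 2 probes at 5.25 ± 0.29. Other markers, PTPRC, MS4A1, CDH5, VWF, ALB, ADIPOQ, MLANA and TYR, were mixed, and LYZ, CD2, FABP4 and S100B had no probe above background on any array. Of 12 fibroblast genes 6 were detected, or 50.0% beside 68.8% of all genes. Of the 12, 2 had a mean level above the 95th percentile of the olfactory receptor genes, COL5A1 at 7.99 ± 0.29 and COL1A1 at 7.73 ± 0.09. CD3E, a T cell gene, stood at 6.83 ± 0.13 and SPI1, a myeloid factor, at 6.15 ± 0.16. In the liver and fat list SERPINA1, the antitrypsin gene, was the highest at 9.77 ± 0.14, and the other 11 genes ran from 3.59 for FABP4 to 6.60 for APOA1. In the melanocyte and neural list the genes other than TUBB3 ran from 3.93 for TYR to 6.53 for GFAP. Fibroblast genes below COL1A1 ran from 3.88 for POSTN to 6.30 for COL1A2. Fibroblast markers FAP, PDPN and POSTN had 3 of 26, 1 of 7 and 1 of 25 probes above background.

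**Figure D5:**
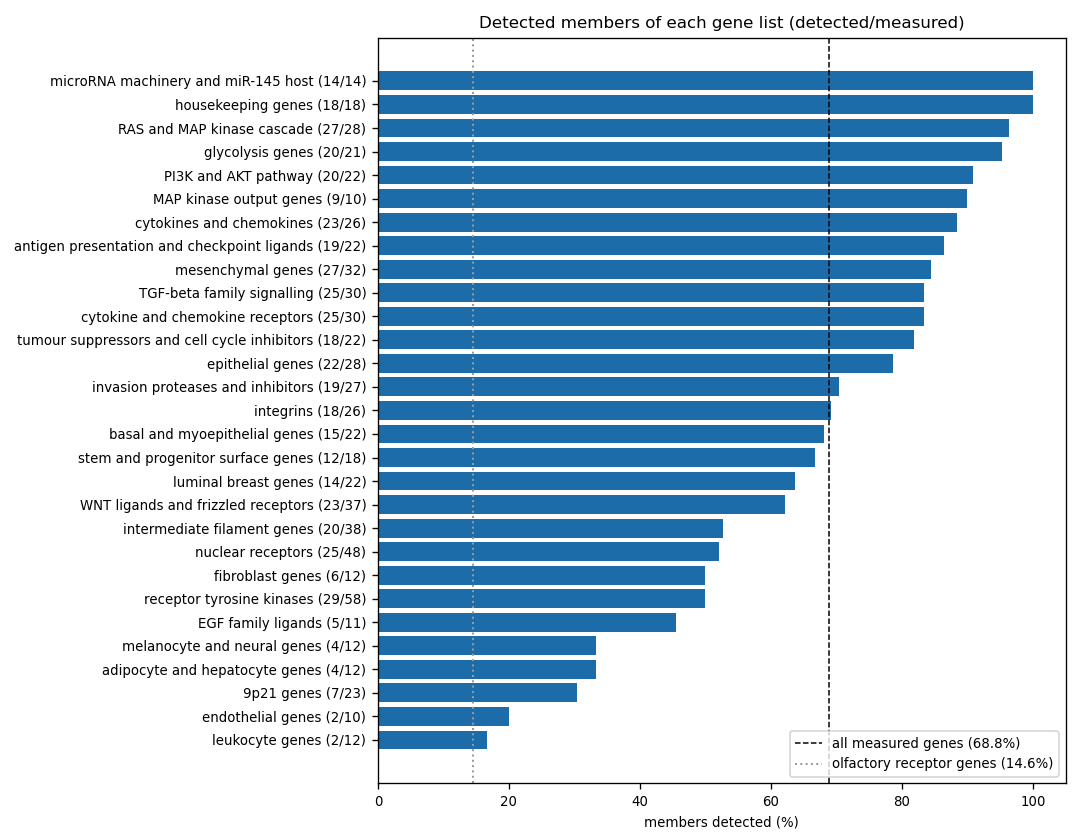
Percent of measured members detected in each of the 29 gene lists, with counts beside the names, a dashed line at the 68.8% of all measured genes and a dotted line at the 14.6% of olfactory receptor genes. The microRNA machinery and housekeeping lists stand at 100 and the leukocyte list, with 2 of 12, is the lowest.

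Among detected genes with at least 3 probes the largest SD was that of RWDD2A, with 7.85, 10.05 and 9.80. The AP-1 genes FOSB and FOS, which respond to stimuli within minutes, measured 8.04, 6.96 and 6.40 and 9.47, 8.18 and 8.32, both highest on replicate 1. LCN2, the iron-binding lipocalin, measured 11.89, 12.05 and 13.12. CCL2 and CXCL8 were also among the 10 most variable, with ZNF208, DNAJB4, ZNF564 and TTC36 at SDs of 0.68 to 0.73. Replicate 3 was the farthest from the mean for 43.9% of the detected genes, replicate 2 for 38.9% and replicate 1 for 17.2%. No cause of these differences was tested.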

How the data were processed

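Gene expression of MDA-MB-231 cells was measured on 1-colour Agilent SurePrint G3 Human Exon arrays, and the 3 arrays labelled cntrl are described. Groups and replicate numbers come from the labels, and doses and times from the treatment protocol. The authors deposited, for each array, the output of Feature Extraction 10.7.3.1, in which the processed signal is a background-corrected intensity that had not been scaled to other arrays. A quantile normalized log2 table of 217027 probes was deposited by the authors as well and served as an alternative source. Its gene means correlated with those used here with r = 0.979 over 20316 genes.

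Here 317 to 402 outlier spots of each cntrl array were left out, processed signals were quantile normalized over all 12 arrays and log2 transformed, and spots were averaged per probe. RefSeq (GRCh38.p14) named a gene for 209671 of 233164 probes (89.9%) by transcript accession, and probes were averaged over each of 20708 genes. For 1 gene there was no value on replicate 3. The gIsWellAboveBG flag gave detection. No test was run, since no groups are compared. Fixed were 29 gene lists and a rule for the genes named: the 4 markers, the 20 highest genes with at least 3 probes, all above background, the 10 detected genes with at least 3 probes and the largest SD, and list members, of which the 3 highest and 3 lowest of each list are named or covered by a range. Some list members are counted but their values are not reported here. Members and lists were chosen with earlier results of these data known, and the families were added after the values were seen. Alternatives changed the detection rule, the normalization, the probe summary and the arrays used, and normexp used limma 3.58.1 in R 4.3.3 with an offset of 50. Other steps used Python 3.11.15 with numpy 2.4.6, pandas 2.3.3 and scipy 1.17.1 and were tested on simulated data. Figures used matplotlib 3.10.9.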

Additional observations from a re-analysis of the deposited data

How the results depend on the processing

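Over 29 gene lists and both counts over all genes, detection depended on the rule more than on the arrays. With every probe of a gene required, 6413 genes were detected, and in the lists 9 epithelial, 9 luminal, 5 basal, 6 stem, 9 receptor tyrosine kinase, 13 nuclear receptor, 9 intermediate filament, 14 cytokine, 13 cytokine receptor, 9 WNT, 13 TGF-beta, 13 RAS and MAP kinase, 7 PI3K, 5 tumour suppressor, 4 9p21, 4 integrin, 8 protease, 9 antigen presentation, 4 microRNA machinery, 1 leukocyte, 0 endothelial, 0 fibroblast, 0 adipocyte and hepatocyte and 1 melanocyte and neural genes. With any 1 probe the counts were 58 kinases, 47 nuclear receptors, 37 intermediate filament, 10 EGF ligand, 13 9p21, 10 leukocyte, 9 endothelial, 12 fibroblast, 11 adipocyte and hepatocyte and 11 melanocyte and neural genes. Spots above the 95th percentile of the negative controls gave 350 genes not above background, 52 kinases, 45 nuclear receptors, 36 intermediate filament, 9 EGF ligand, 16 9p21, 11 leukocyte, 10 endothelial, 10 adipocyte and hepatocyte and 10 melanocyte and neural genes. The 99th percentile gave 423, 51, 45, 35, 8, 14, 10, 10, 9 and 10 for the same. With at least 2 of the 3 arrays 6 leukocyte genes were detected. Among genes with at least 3 probes 514 were not above background, and 1 9p21 and 1 endothelial gene were detected. A mean above the 95th percentile of olfactory receptor genes, chosen after seeing the data, left 3 9p21, 9 integrin, 1 endothelial, 2 fibroblast and 2 melanocyte and neural genes. Leaving out 1 replicate gave 2 to 5 leukocyte genes, 5 without replicate 2, and 14370 to 14921 detected genes. CDH1 stood above 28.6% to 54.3% of the genes over the alternatives and VIM above 99.4% to 99.7%. EGFR stood above 72.8% to 83.1% and CD44 above 89.4% to 94.6%. Causes were not tested. No paired analysis was possible because no groups are compared. Signal over background limits what can be said of genes under the lowest flagged signals.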

Other observations

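Gene families outside the lists, chosen by symbol after the values were seen, held several of the brightest genes of these cells. Of 14 galectin genes 9 were detected, and LGALS1, galectin 1, stood at 15.34 ± 0.10 (SD, n = 3) far above LGALS3 at 10.74 ± 0.44. Of 18 S100 genes, which encode calcium-binding proteins, 10 were detected. S100A6, S100A11 and S100A16 stood at 14.18 ± 0.05, 13.75 ± 0.04 and 13.41 ± 0.05, while S100A8, S100A9 and S100A12, known from neutrophils, had no probe above background on all arrays. Of 12 annexin genes, whose products bind membranes in the presence of calcium, 10 were detected, led by ANXA2 at 13.06 ± 0.16 with 16 of 16 probes and ANXA5 at 12.81 ± 0.15. MT2A, a metallothionein that binds zinc, stood at 16.68 ± 0.04, and 10 of 11 metallothionein genes were detected, although these copies are so alike that a probe may read several of them.

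Tetraspanins, which organise proteins of the membrane, were detected in 20 of 29 cases. CD63, CD81, CD151 and CD9 stood at 13.37 ± 0.25, 11.92 ± 0.18, 11.59 ± 0.23 and 11.56 ± 0.10, and CD53, of leukocytes, had 3 of 10 probes above background at 5.14. Of 19 SOX genes 8 were detected. SOX9 was the highest, followed by SOX13 at 7.50 ± 0.15, and SOX1, SOX3 and SOX11 were not above background on 1 probe each. These families can be set beside the 14.6% of olfactory receptor genes and the 68.8% of all genes detected.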
